A study of Mus musculus with 10 samples.

Results

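The 10 nuclear regulators described here are the coactivators Ppargc1a and Ppargc1b, the oestrogen-related receptors (ERRs) Esrra, Esrrb and Esrrg, the peroxisome proliferator-activated receptors (PPARs) Ppara and Ppard, and the factors Nrf1, Gabpa and Tfam. They were taken by gene symbol from 37819 features, and each symbol matched 1 gene. RNA of isolated and purified cardiomyocytes (CMs) was sequenced in 5 libraries from old mice (20 months) and 5 libraries from young mice (3 months), all of the inbred strain C57BL6J with no transgene and no treatment named. Hearts were digested by perfusion, CMs were sedimented, and cells carrying CD31, SCA1 or CD45 were taken out with magnetic beads. The values are FPKM, which count fragments relative to transcript length and to the mapped fragments of the library, as the authors determined them for each library. The methods of the study name mixed-sex mice for the isolation of CMs. Neither the labels nor the methods tie a library to a mouse, so the p-values measure only the spread between libraries. Legends of the study differ on the number of mice sequenced per age, and 1 of them gives fewer than 5. It is thus not known whether the 5 libraries of an age come from separate mice.

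The heart takes most of its energy from fatty acids burned in mitochondria, and the genes for this work sit almost entirely in the nucleus. PPARs, paired with retinoid X receptors, switch on genes of fatty acid uptake and oxidation, and ERRs switch on genes of the citric acid cycle, the respiratory chain and energy transfer. The PGC-1 coactivators bind both receptor families and nuclear respiratory factor 1, while Nrf1 and Gabpa act on promoters of respiratory chain genes and of Tfam, whose protein packs mitochondrial DNA and starts its transcription.

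Members of this group bind each other's promoters in published work, so the promoter stretches that hold motifs of the group's own factors are shown here. The 250 bases before each start site in RefSeq (GRCm38.p6) were searched on both strands for the letters GCGCANGC (NRF1), CCGGAAGT (GABPA) and AAGGTCA (ERR), in 14 windows of 9 members, and Ppargc1b was not among them. Stretches run 5′ to 3′ on the gene's strand, with the matched letters in capitals. The Esrra stretch lies on the minus strand at chr19:6921816-6921964, that of Ppara on the plus strand at chr15:85735730-85735769 and that of Tfam on the minus strand at chr10:71238069-71238106.
Esrra, NRF1 letters: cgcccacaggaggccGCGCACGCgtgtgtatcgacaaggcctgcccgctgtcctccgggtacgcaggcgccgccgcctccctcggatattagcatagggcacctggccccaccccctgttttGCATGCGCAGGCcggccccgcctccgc
Ppara, NRF1 letters: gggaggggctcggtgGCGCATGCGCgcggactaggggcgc
Tfam, GABPA letters: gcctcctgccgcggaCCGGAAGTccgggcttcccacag

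The Esrra stretch held the NRF1 letters 3 times, with first bases at -141, -34 and -30 from the start site, and the last 2 of these matches overlap. The Ppara stretch held them in 2 overlapping matches, beginning at -31 and -29, and the GABPA letters of Tfam began at -47. The NRF1 letters were thus found in 2 of 9 members (22.2%) and in 2536 of 27025 genes with such a window (9.38%). The GABPA letters were found in 1 of 9 members (11.1%) and in 873 of all genes (3.23%). The ERR letters were found in 0 of 9 members and in 1271 of all genes (4.70%). Windows of Ppargc1a, Esrrb, Esrrg, Ppard, Nrf1 and Gabpa held none of the 3 motifs, which says only that these letters are not in those windows.

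All 10 regulators averaged 1 FPKM or more, the minimum for the test below. FPKM corrects for transcript length, so the levels can be ordered. Esrra stood first at 83.9 ± 7.96 FPKM (mean ± SD over 10 libraries), above 94.0% of the tested features, and its lowest library (76.9 FPKM) lay far above the highest value of any other member. Tfam (26.7 ± 3.40 FPKM) and Ppargc1a (26.6 ± 5.63 FPKM) followed, and their order was not stable, with Tfam above Ppargc1a in 6 of 10 libraries. Ppargc1a was above Ppara (14.8 ± 1.74 FPKM) in 10 of 10 libraries, with no overlap of their ranges. Gabpa (12.1 ± 1.27 FPKM) was above Esrrg (12.01 ± 1.08 FPKM) in 5 of 10 libraries, and Ppara, Gabpa, Esrrg, Ppard (10.5 ± 0.9996 FPKM) and Esrrb (9.66 ± 1.03 FPKM) formed a chain of overlapping neighbours. Ppargc1b was at 5.50 ± 1.14 FPKM, below Esrrb in every library, and Nrf1 was lowest at 3.22 ± 0.660 FPKM. Nrf1 thus ranked above 27.7% of tested features only.

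The question put to each regulator was whether its expression differed between old and young CMs. Differences were tested with limma on log2(FPKM + 1) over all 12340 features that averaged 1 FPKM or more. P-values were adjusted by the Benjamini-Hochberg method over those features, and an adjusted p under 0.05 was a call. Adding 1 before the logarithm makes the change of a low gene look smaller. Of all tested features, 220 passed (1.78%), 85 higher and 135 lower in old CMs. Of the 10 regulators, 0 passed in limma, and 4 had an unadjusted p under 0.05, all of them lower in old CMs: Esrra, Ppard, Ppargc1a and Tfam. Over all features 20.9% had an unadjusted p under 0.05. Lower mean log2 values in old CMs were found for 6 of the 10 regulators and for 68.7% of all tested features. The median difference was -0.08 over the regulators and -0.06 over all features, so the group as a whole stood close to the background, with members on both sides of it. Groups of libraries did not overlap for 1 regulator, Esrra, and for 6.91% of all features.

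**Figure D1:**
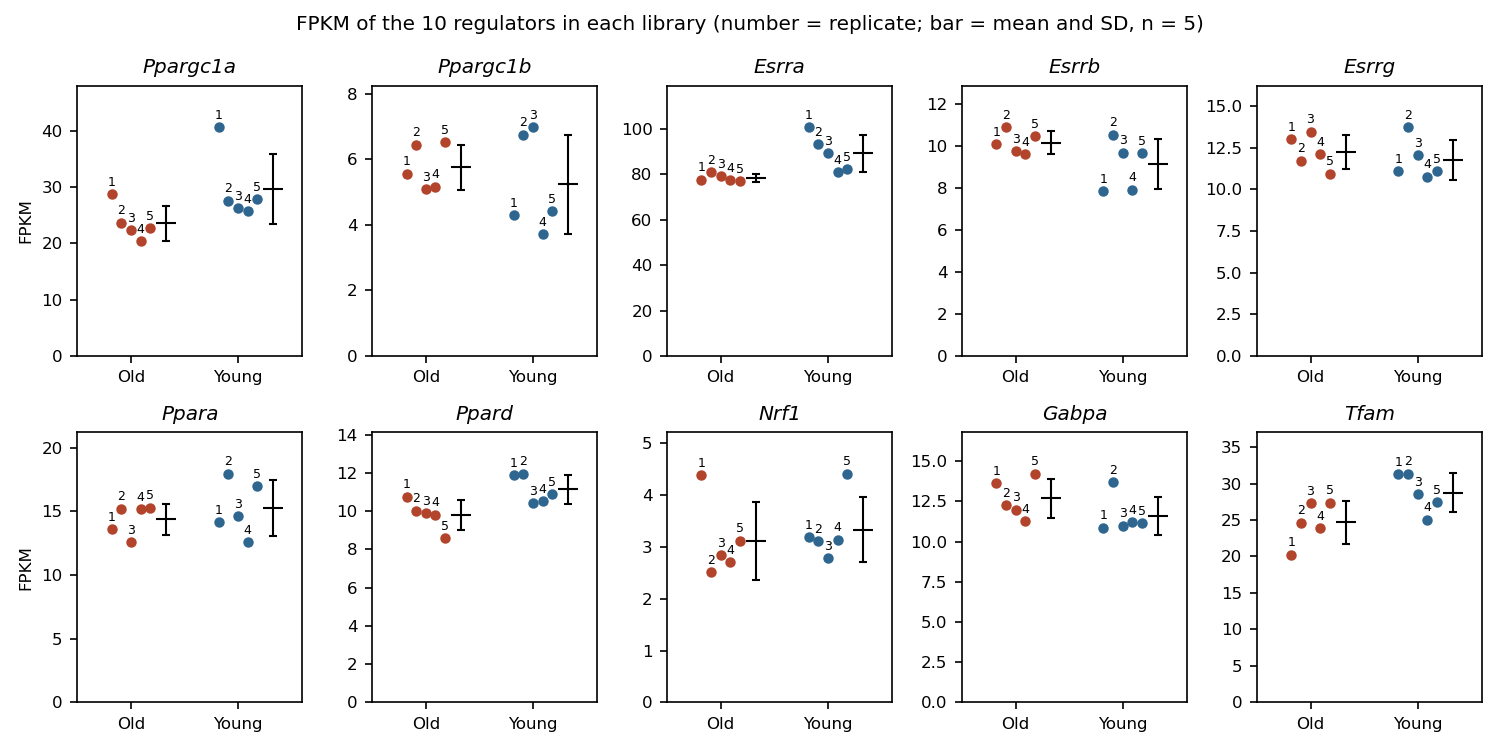
FPKM (vertical axes, each starting at 0) of each regulator in the 5 old and the 5 young libraries; points are libraries with their replicate number and bars are the mean and SD. For the deposited values plotted here, Esrra is the only panel in which old and young libraries do not overlap, and young library 1 stands alone at 40.6 FPKM for Ppargc1a.

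Ppargc1a (ENSMUSG00000029167, chr5:51845488-51958964, minus strand; positions of genes are of the mouse build mm9) encodes PGC-1alpha, the inducible coactivator of mitochondrial biogenesis. Old libraries 1 to 5 had 28.7, 23.7, 22.4, 20.4 and 22.7 FPKM, and young libraries 1 to 5 had 40.6, 27.6, 26.2, 25.7 and 27.9 FPKM. The lowest young library was above 4 of 5 old ones, old library 1 lay among the young values, and young library 1 was far above all others. The mean was 23.6 ± 3.10 FPKM in old and 29.6 ± 6.24 FPKM in young CMs (SD, n = 5 each), a difference of -20.4% of the young mean. The log2 difference was -0.31 (SE 0.13, 95% interval -0.59 to -0.02, unadjusted p = 0.037, limma adjusted p = 0.21). The difference in mean FPKM of -6.04 had a two-sided exact permutation p of 0.048, where 5 against 5 libraries allow no p below 0.0079. Without young library 1 the difference was -3.28 FPKM and its exact permutation p 0.095. Leaving out old library 2, 3, 4 or 5 or young library 2 or 5 also took the exact permutation p above 0.05, with 0.12 the highest of these values.

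Ppargc1b (ENSMUSG00000033871, chr18:61457790-61560085, minus strand) encodes PGC-1beta, a coactivator related to PGC-1alpha. In old libraries 1 to 5 it was at 5.56, 6.44, 5.08, 5.17 and 6.52 FPKM, and young libraries 1 to 5 had 4.30, 6.75, 6.98, 3.72 and 4.42 FPKM. Young libraries 2 and 3 were above every old library and the other 3 young libraries were below every old one, so the young values lay on both sides of the old. The mean was 5.76 ± 0.687 FPKM in old and 5.23 ± 1.52 FPKM in young CMs (SD, n = 5 each). On the log2 scale the difference was 0.14 (SE 0.15, 95% interval -0.19 to 0.48), and the exact permutation p of the difference in means was 0.48. Ppargc1a thus had 3.49 to 5.16 times the FPKM of Ppargc1b in old libraries (median 3.95) and 3.75 to 9.46 times in young libraries (median 6.32), with overlap between the ages. This ratio was not tested.

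Esrra (ENSMUSG00000024955, chr19:6985467-6996303, minus strand) encodes ERRalpha, the main ERR of oxidative tissues and a close partner of PGC-1alpha. Its levels in old libraries 1 to 5 were 77.7, 80.9, 79.1, 77.5 and 76.9 FPKM, and young libraries 1 to 5 had 100.8, 93.2, 89.2, 81.1 and 82.4 FPKM. Every old library was below every young one, though young library 4 exceeded old library 2 by little. The old libraries also lay close together, with a coefficient of variation of 2.0% against 9.1% in the young. The mean was 78.4 ± 1.58 FPKM in old and 89.3 ± 8.08 FPKM in young CMs (SD, n = 5 each), a difference of -12.2% of the young mean. The log2 difference was -0.18 (SE 0.06, 95% interval -0.31 to -0.05, unadjusted p = 0.010, limma adjusted p = 0.12). The difference of -10.9 FPKM had an exact permutation p of 0.0079, the smallest the design allows. It stayed at 0.040 or below when any 1 library was left out.

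Esrrb (ENSMUSG00000021255, chr12:87702067-87862578, plus strand) encodes ERRbeta, known from embryonic stem cells and the placenta as well as from oxidative tissues. The old libraries 1 to 5 had 10.1, 10.9, 9.76, 9.62 and 10.5 FPKM, and young libraries 1 to 5 had 7.86, 10.6, 9.70, 7.93 and 9.68 FPKM. Young libraries 1 and 4 were low, young library 2 was as high as most old ones, and the ages overlapped. The mean was 10.2 ± 0.530 FPKM in old and 9.15 ± 1.20 FPKM in young CMs (SD, n = 5 each). Its difference on the log2 scale was 0.15 (SE 0.08, 95% interval -0.03 to 0.32), with a limma adjusted p of 0.32 and an exact permutation p of 0.15. Without young library 2 the exact permutation p was 0.032, and it was 0.13 to 0.29 when any other single library was left out.

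Esrrg (ENSMUSG00000026610, chr1:189432670-190038764, plus strand) encodes ERRgamma, which drives the oxidative programme of the heart around birth. Old libraries 1 to 5 had 13.03, 11.7, 13.5, 12.1 and 10.96 FPKM, and young libraries 1 to 5 had 11.1, 13.7, 12.05, 10.8 and 11.1 FPKM. Values of the ages were interleaved, with the highest and the lowest of the 10 both young. The mean was 12.3 ± 1.01 FPKM in old and 11.8 ± 1.21 FPKM in young CMs (SD, n = 5 each), with a log2 difference of 0.06 (95% interval -0.11 to 0.22) and an exact permutation p of 0.48.

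Within a library, the proportions of the 3 ERR transcripts do not depend on how the library was scaled. Esrra made up 77.0%, 78.1%, 77.3%, 78.1% and 78.2% of the summed ERR FPKM in old libraries 1 to 5, and 84.2%, 79.3%, 80.4%, 81.3% and 79.8% in young libraries 1 to 5. Every old share was below every young share. Esrrb made up 9.54% to 10.7% in old libraries (median 10.02%) and 6.56% to 9.38% in young libraries (median 8.74%), also without overlap and in the opposite direction. The shares of a library sum to the whole, so a lower Esrra share by itself makes those of Esrrb and Esrrg together higher. The share of Esrrg was 11.1% to 13.2% in old and 9.28% to 11.7% in young libraries and overlapped. The 3 genes together reached 98.4 to 103.5 FPKM in old libraries (median 100.8) and 99.8 to 119.7 FPKM in young libraries (median 110.9). These shares were worked out after the values were seen and were not tested.

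**Figure D2:**
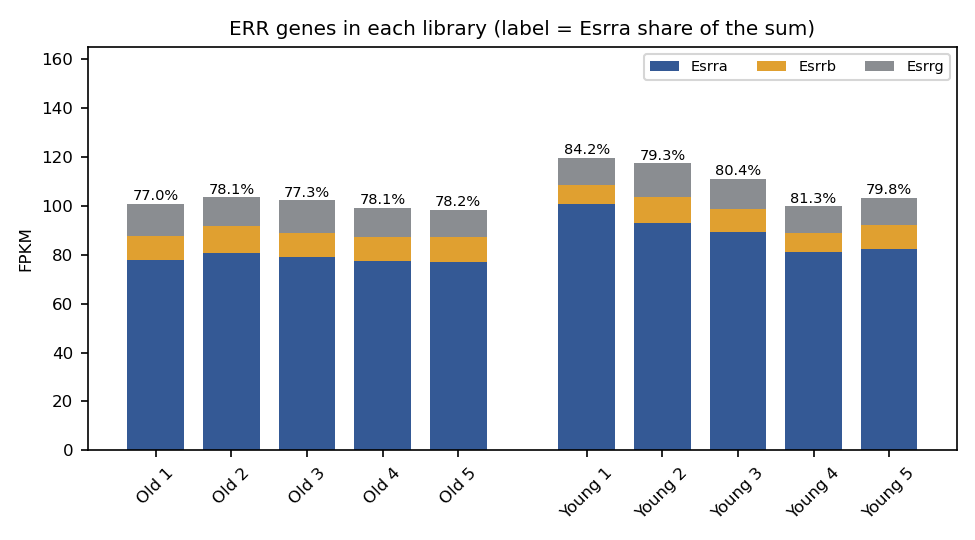
FPKM of Esrra, Esrrb and Esrrg (stacked bars, vertical axis from 0) in each old and young library, with the share of Esrra in the sum written above each bar. The Esrra share was at most 78.2% in the old libraries and at least 79.3% in the young ones, while Esrra was the bulk of the sum in all 10.

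Ppara (ENSMUSG00000022383, chr15:85565413-85633249, plus strand) encodes PPARalpha, the receptor that fatty acids activate and that governs their oxidation in the heart. Across old libraries 1 to 5 it was at 13.6, 15.2, 12.6, 15.2 and 15.3 FPKM, and young libraries 1 to 5 had 14.2, 17.9, 14.6, 12.5 and 16.99 FPKM. The old values lay inside the range of the young ones. The mean was 14.4 ± 1.22 FPKM in old and 15.3 ± 2.19 FPKM in young CMs (SD, n = 5 each). The log2 difference was -0.07 (SE 0.09, 95% interval -0.28 to 0.13) and was 0.01 when libraries were scaled to the same upper quartile. The exact permutation p was 0.44.

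Ppard (ENSMUSG00000002250, chr17:28369699-28438414, plus strand) encodes PPARdelta, the more widely expressed PPAR that shares many fatty acid oxidation targets with PPARalpha. Old libraries 1 to 5 had 10.8, 10.01, 9.89, 9.81 and 8.59 FPKM, and young libraries 1 to 5 had 11.9, 11.95, 10.4, 10.5 and 10.9 FPKM. The lowest young library was above 4 of 5 old ones, and old library 1 lay among the young. The mean was 9.81 ± 0.780 FPKM in old and 11.1 ± 0.741 FPKM in young CMs (SD, n = 5 each), a difference of -11.9% of the young mean. The log2 difference was -0.17 (SE 0.06, 95% interval -0.30 to -0.03, unadjusted p = 0.021, limma adjusted p = 0.16), and the difference of -1.32 FPKM had an exact permutation p of 0.024. That p was 0.056 without old library 4 and 0.064 without old library 5. Ppara had 1.26 to 1.78 times the FPKM of Ppard in old libraries (median 1.52) and 1.19 to 1.56 times in young libraries (median 1.40), a ratio that was not tested.

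Nrf1 (ENSMUSG00000058440, chr6:29997988-30103458, plus strand) encodes nuclear respiratory factor 1, and is not the stress factor Nfe2l1, which is also called Nrf1. Measured levels in old libraries 1 to 5 were 4.39, 2.51, 2.83, 2.71 and 3.12 FPKM, and young libraries 1 to 5 had 3.19, 3.11, 2.78, 3.14 and 4.41 FPKM. Each age had 1 high library, old 1 and young 5, and the others lay close together. The mean was 3.11 ± 0.747 FPKM in old and 3.33 ± 0.627 FPKM in young CMs (SD, n = 5 each), with a log2 difference of -0.08 (SE 0.13, 95% interval -0.36 to 0.20) that was 0.00 without young library 5. The exact permutation p was 0.52. Nrf1 rests on few fragments, a mean of 107.5 normalised counts in the authors' comparison against 2235.2 for Esrra.

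Gabpa (ENSMUSG00000008976, chr16:84835170-84864024, plus strand) encodes the DNA-binding subunit of nuclear respiratory factor 2. Old libraries 1 to 5 had 13.6, 12.3, 11.98, 11.3 and 14.2 FPKM, and young libraries 1 to 5 had 10.9, 13.7, 10.98, 11.2 and 11.1 FPKM. Apart from young library 2, every young library was below every old one. The mean was 12.7 ± 1.21 FPKM in old and 11.6 ± 1.184 FPKM in young CMs (SD, n = 5 each). On the log2 scale the difference was 0.12 (SE 0.08, 95% interval -0.05 to 0.29, limma adjusted p = 0.41), with an exact permutation p of 0.17. That p was 0.016 without young library 2 and 0.13 to 0.37 when any other single library was left out. Gabpa shares 4.99% of its 5051 exonic stretches of 50 bases with Atp5j, a subunit gene of ATP synthase on the opposite strand. Whether the reads were counted by strand is not given in the sources used here. Atp5j was at 777.3 ± 47.3 FPKM in old and 877.2 ± 43.8 FPKM in young CMs (SD, n = 5 each), a log2 difference of -0.18 against 0.12 for Gabpa. Of the other members, Esrra shared 24 of 2275 stretches (1.05%) with Trmt112, Ppargc1a 9 of 6609 and Tfam 3 of 4391, and 6 members shared 0.

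Tfam (ENSMUSG00000003923, chr10:70688212-70701028, minus strand) encodes mitochondrial transcription factor A, and its promoter stretch above carries the GABPA letters. It reached, in old libraries 1 to 5, 20.3, 24.6, 27.3, 23.9 and 27.4 FPKM, and young libraries 1 to 5 had 31.3, 31.3, 28.6, 25.05 and 27.4 FPKM. Old library 1 was lowest of all, 3 of 5 old libraries were below every young one, and old libraries 3 and 5 lay among the young. The mean was 24.7 ± 2.94 FPKM in old and 28.7 ± 2.68 FPKM in young CMs (SD, n = 5 each), a difference of -14.1% of the young mean. Its difference on the log2 scale was -0.21 (SE 0.09, 95% interval -0.41 to -0.02, unadjusted p = 0.037, limma adjusted p = 0.21), and the difference of -4.04 FPKM had an exact permutation p of 0.040. Leaving out old library 1, 2 or 4, or young library 1, 2, 3 or 5, took that p above 0.05, to 0.10 at most.

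The scale of the libraries bears on these directions. Total FPKM was 1155614 to 3289461 per library, and factors from the median ratio over genes were 0.945 to 0.995 in old and 0.989 to 1.05 in young libraries. Dividing each library by its factor moved the median difference of all features to 0.00, against -0.06 as deposited. On that scale 0 of the 10 regulators passed in limma and 2 had an unadjusted p under 0.05, Esrrb and Gabpa, both higher in old CMs. Shares of all features with such a p, or without overlap, were worked out for the deposited values only. Scaled counts, here and for the lists below, thus have no such share beside them. Esrrb was then at 10.1 to 11.1 in old and 7.53 to 10.03 scaled FPKM in young libraries, with no overlap, a log2 difference of 0.21 (95% interval 0.03 to 0.39, limma adjusted p = 0.29) and an exact permutation p of 0.0079. Esrra was at 77.3 to 82.0 in old and 78.3 to 96.5 scaled FPKM in young libraries and overlapped, with a log2 difference of -0.11 (limma adjusted p = 0.39) and an exact permutation p of 0.056. Exact permutation p-values on that scale were 0.095 for Ppargc1a, 0.079 for Ppard, 0.14 for Tfam and 0.032 for Gabpa. No regulator changed the sign of its log2 difference with this scaling, and of all features called 105 were higher and 30 lower, against 85 and 135 as deposited.

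**Figure D3:**
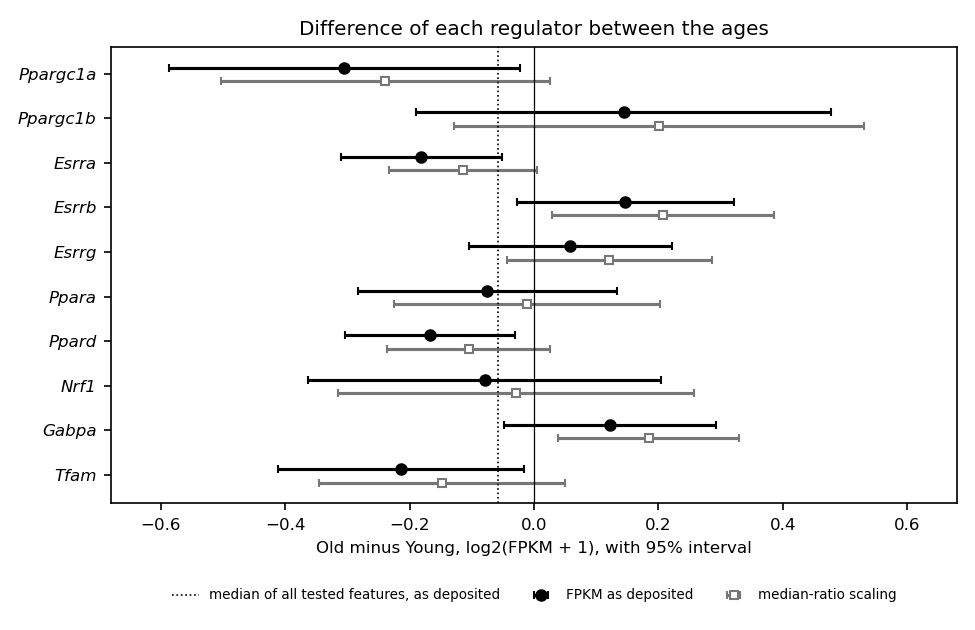
Difference of each regulator between old and young CMs (horizontal axis, old minus young on the log2(FPKM + 1) scale, with 95% limma intervals) for the deposited FPKM (black) and after median-ratio scaling (grey); the dotted line is the median of all tested features as deposited, -0.06. As deposited the intervals of Ppargc1a, Esrra, Ppard and Tfam lie below 0, and after scaling those of Esrrb and Gabpa lie above 0 instead.

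Among 24 partners and coregulators, such as retinoid X receptors, GABP beta subunits and acetylases, 24 were tested, 1 fell and 0 rose. Over all features 1.78% were called. Means were lower in old CMs for 16 of 24 and the median difference was -0.04, against 68.7% and -0.06 over all features. With median-ratio scaling 11 of 24 were lower and the median was 0.01, and with upper-quartile scaling 10 of 24 and 0.03. Scaling to the same total FPKM gave 18 of 24 lower and a median of -0.08. The medians of all features under these 3 scalings were -0.0001, 0.02 and -0.09. An unadjusted p under 0.05 was found for 5, all lower in old CMs as deposited, against 20.9% of all features. The gene that fell was Lpin1, whose product lipin 1 can act with PGC-1alpha and PPARalpha in mouse liver and also makes diacylglycerol. It had 37.1, 40.8, 37.6, 38.6 and 37.2 FPKM in old libraries 1 to 5 and 52.4, 46.2, 46.6, 41.7 and 45.8 FPKM in young libraries 1 to 5. No old library reached the lowest young one, and the log2 difference was -0.27 (SE 0.06, limma adjusted p = 0.047). The call held without young library 4 and was lost when any other single library was left out and under each of the 3 other scalings. Rxrb, a partner of PPARs, was at 17.7 ± 0.638 FPKM in old and 20.6 ± 1.32 FPKM in young CMs (SD, n = 5 each; limma adjusted p = 0.065).

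Of 29 PPAR target genes of lipid use, 28 were tested and 0 passed in limma. An unadjusted p under 0.05 was found for 5, 4 lower and 1 higher in old CMs, against 20.9% of all features, and for 1 with median-ratio and 4 with upper-quartile scaling. With scaling to the same total FPKM, 0 had such a p. The median difference was -0.06 as deposited, 0.005 with median-ratio scaling, 0.02 with upper-quartile scaling and -0.11 with scaling to the same total. Means were lower in old CMs for 16, 14, 10 and 20 of 28, in that order. The medians of all features were -0.06, -0.0001, 0.02 and -0.09, in that order. Cpt2, the inner-membrane carnitine palmitoyltransferase, was at 114.1 ± 16.3 FPKM in old and 133.7 ± 5.26 FPKM in young CMs (SD, n = 5 each; log2 difference -0.24, limma adjusted p = 0.16). Acadvl, the very long chain acyl-CoA dehydrogenase, was at 479.0 ± 37.6 FPKM in old and 529.9 ± 19.1 FPKM in young CMs (log2 difference -0.15, limma adjusted p = 0.18). Mlycd, which breaks down malonyl-CoA, was at 60.0 ± 6.14 FPKM in old and 68.5 ± 5.79 FPKM in young CMs (log2 difference -0.19, limma adjusted p = 0.20). The target genes Angptl4, Pdk4 and Ucp3 are named after their values were seen, and had log2 differences of 0.47, 0.36 and 0.33 with limma adjusted p-values of 0.48, 0.56 and 0.46.

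All 19 ERR and PGC-1 target genes of respiration were tested and all 19 had a lower mean in old CMs, from -0.31 to -0.09 on the log2 scale, with a median of -0.16. Of these 1 fell, 0 rose, 16 had an unadjusted p under 0.05, and old and young libraries did not overlap for 9. The shares of all features were 1.78% called, 20.9% with such a p and 6.91% without overlap. The list was chosen with earlier results of these data known. From the same data the paper reports a decline of most mitochondrial genes in old CMs. The counts here are thus not independent of that result. The gene that fell was Idh3b, a subunit of isocitrate dehydrogenase in the citric acid cycle. It had 439.9, 516.6, 480.5, 468.3 and 501.6 FPKM in old libraries 1 to 5 and 597.7, 558.0, 553.8, 550.3 and 567.9 FPKM in young libraries 1 to 5. The groups did not overlap, the log2 difference was -0.23 (SE 0.05, limma adjusted p = 0.047), and the call was lost when any single library was left out. Ckmt2, the mitochondrial creatine kinase of muscle, was at 1429 ± 115 FPKM in old and 1775 ± 170 FPKM in young CMs (SD, n = 5 each; log2 difference -0.31, limma adjusted p = 0.072). Uqcrc1, a core subunit of complex III, was at 814.9 ± 60.2 FPKM in old and 941.5 ± 27.5 FPKM in young CMs (SD, n = 5 each; log2 difference -0.21, limma adjusted p = 0.081). All 19 stayed lower in old CMs under median-ratio scaling, upper-quartile scaling and scaling to the same total, with medians of -0.10, -0.08 and -0.21. The medians of all features under these scalings were -0.0001, 0.02 and -0.09. Of the 19 genes, 5, 2 and 0 then had an unadjusted p under 0.05, and 0 were called.

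Of 20 genes for transcription and copying of mitochondrial DNA, the processes in which Tfam works, 19 were tested, 0 passed in limma and 8 had an unadjusted p under 0.05, all lower in old CMs. Over all features 20.9% had such a p and 68.7% were lower, and here 17 of 19 were lower with a median difference of -0.11. Under median-ratio, upper-quartile and same-total scaling 3, 3 and 0 had such a p and 16, 15 and 18 of 19 were lower. The medians were then -0.05, -0.03 and -0.15, against -0.0001, 0.02 and -0.09 over all features. Mterfd3 and Mterfd1, of the family of mitochondrial termination factors, were at 12.8 ± 1.15 and 14.7 ± 1.13 FPKM in old CMs and at 15.7 ± 1.14 and 17.9 ± 1.52 FPKM in young CMs (SD, n = 5 each; limma adjusted p = 0.071 and 0.081). Peo1, the helicase Twinkle, was at 9.31 ± 0.396 FPKM in old and 11.03 ± 0.995 FPKM in young CMs (SD, n = 5 each; limma adjusted p = 0.085). The 13 messenger RNAs of mitochondrial DNA itself, the transcripts that Tfam serves, are listed at 0 in all 10 libraries, so nothing can be said of them here.

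**Figure D4:**
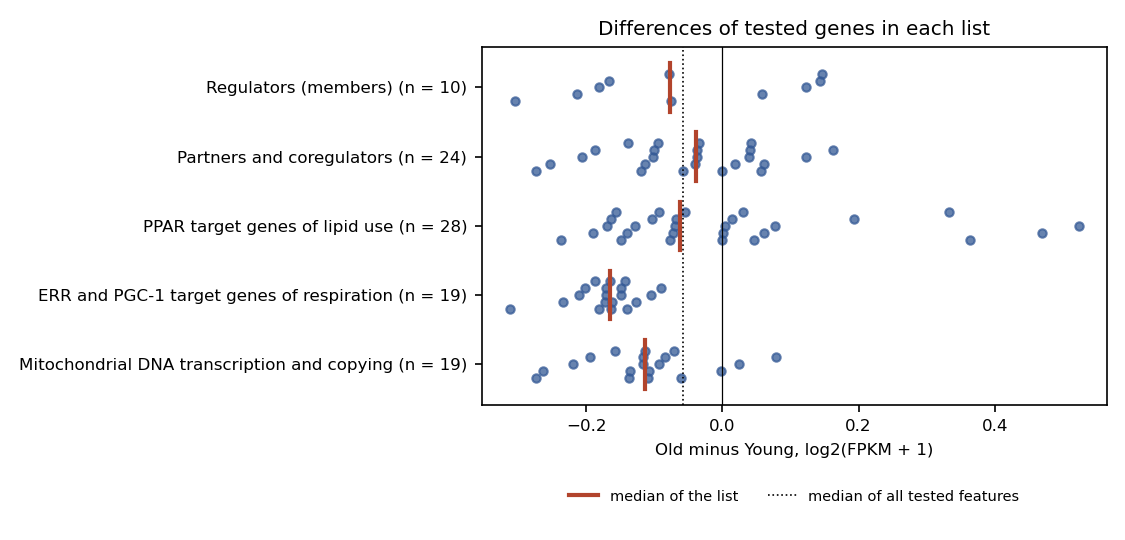
Difference between old and young CMs (horizontal axis, old minus young, log2(FPKM + 1)) of every tested gene of the 10 regulators and of 4 gene lists; each point is a gene, red bars are list medians and the dotted line is the median of all tested features. The 19 ERR and PGC-1 target genes of respiration all lie below 0, while the regulators and the PPAR target genes of lipid use spread to both sides. The lists were chosen with earlier results of these data known. Genes were not repeated between lists, although the PGC-1 coactivators bind both receptor families.

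The patterns most like those of Esrra and Ppard, the 2 regulators with the smallest unadjusted p, were sought by the Pearson correlation of log2(FPKM + 1) over the 10 libraries, which share the scaling and the age groups. For Esrra they were Metrnl, E130208F15Rik and Ciapin1, with r of 0.99, 0.98 and 0.97 and Spearman's rho of 0.96, 0.90 and 0.90. Without young libraries 1 and 2, the farthest from the median of Esrra, r was 0.99, 0.92 and 0.90. For Ppard they were Ttll1, Mogs and Fam120a, with r of 0.95, 0.93 and 0.92 and rho of 0.90, 0.87 and 0.87, and r of 0.89, 0.92 and 0.87 without old library 5 and young library 2. These values describe the libraries and carry no test.

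Cell type markers were summed per library to see what else the purified cells held, given as the lowest, the median and the highest library. CM markers (Myh6, Tnnt2, Tnni3, Actn2, Myl2, Ryr2) summed to 23710, 26600 and 27140 FPKM in old and 25460, 26110 and 28680 FPKM in young libraries. Endothelial markers summed to 86.6, 98.6 and 173.8 FPKM in old and 75.8, 95.1 and 158.4 FPKM in young libraries, and fibroblast markers to 38.2, 49.3 and 107.5 FPKM in old and 39.3, 47.3 and 112.0 FPKM in young libraries. Mural cell markers summed to 69.0, 80.6 and 142.7 FPKM in old and 75.7, 114.3 and 146.3 FPKM in young libraries, and red blood cell markers to 1.36, 2.21 and 5.80 FPKM in old and 2.59, 7.04 and 23.9 FPKM in young libraries. Medians of both were lower in old libraries. Mural markers entered the stromal covariate of the alternatives together with endothelial, leukocyte and fibroblast markers. The part of mural cells alone, or of red blood cells, in the results was not tested. The sums of the ages overlapped for these types and for leukocyte and atrial markers, and 0 markers of any type passed in limma. Leukocyte markers summed to 13.96, 18.9 and 23.8 FPKM in old and 11.55, 15.6 and 37.8 FPKM in young libraries. Of the leukocyte markers only Ptprc, the gene of CD45, stayed below 1 FPKM in all 10 libraries. The 4 adipocyte markers stayed below 1 FPKM as well. Old library 1 and young library 4 had the highest levels of stromal markers. Without both, exact permutation p was 0.029 for Esrra, Ppard, Ppargc1a and Tfam alike, the smallest that 4 against 4 libraries allow. Limma adjusted p was then 0.17 for Esrra, Ppard and Ppargc1a and 0.21 for Tfam. Of the libraries left out, old library 1 was the highest old one for Ppargc1a and Ppard. Young library 4 was the lowest young one for Esrra, Ppargc1a and Tfam. The share of all features without overlap was not worked out for this setting. In bulk libraries such as these, fewer cells of a type and less RNA per cell cannot be told apart.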

How the data were processed

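RNA of purified CMs from old and young mice was sequenced as paired-end reads on 1 flow cell. The authors aligned reads to mm9 with TopHat2, using Ensembl splice junctions, kept unique reads, counted these per gene (HTSeq) and tested old against young CMs with DESeq2. Versions are not given in the sources used here. FPKM per gene and library were determined by the authors with Cufflinks and used as deposited. The deposited comparison of the authors gives a mean normalised count per gene, a signal used here only to show depth, and their fold changes and p-values, which were not used. Its 10 columns of values per sample were not used, since they could not be tied to samples. In it, 5 entries that name no gene held 73.9% of the mean normalised counts, 38.5% without a feature and 35.3% not unique, and genes held 12452210. The depth per library is not given, so no counting interval is attached to FPKM values.

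In the FPKM values 1 stray header line was left out. The test of all features averaging 1 FPKM or more was limma 3.58.1 (lmFit, eBayes with trend, two-sided) on log2(FPKM + 1), run in R 4.3.3. Since the values are FPKM, no count model was fitted. Single genes were compared by two-sided exact permutation of 5 against 5 libraries, in 10 tests. The procedure was tested on simulated data. Gene positions are from the GENCODE annotation of mm9, and sequences and motifs from RefSeq. Figures were drawn with matplotlib 3.10.9.

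The members and lists were chosen with earlier results of these data known. Named genes are all members and, in each list, the called genes filled up to 3 by unadjusted p. Not every gene so selected is reported here. Alternatives were a pseudocount of 0.1, no filter, a minimum of 5 FPKM, median-ratio, upper-quartile and same-total scaling, a replicate block, array weights, robust eBayes, a stromal covariate, and leaving out libraries. Median-ratio scaling before the permutation test was added after seeing the data.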

Additional observations from a re-analysis of the deposited data

Results flagged for a closer look

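Of the 20 sets of 5 libraries (10 regulators in each of 2 ages), 3 had a library farther from the others than Dixon's critical value for 5 samples allows, all of them the highest library of the young. Independent, normally distributed sets would give about 1 in 20. Here the same libraries recur for every regulator, and the share over all features was not worked out. Whether 3 of 20 is more than usual thus cannot be said. For Ppargc1a it was young library 1 with 40.6 FPKM, where the gap to the next library took up 0.854 of the range of the young. For Nrf1 it was young library 5 with 4.41 FPKM, with a gap of 0.752 of the range. For Gabpa it was young library 2 with 13.7 FPKM, with a gap of 0.876 of the range. No single young library stood apart for more than 1 regulator.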

How the results depend on the processing

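In all 21 alternatives 0 regulators passed in limma, and 8 of the 10 kept the direction of their log2 difference. The exceptions were Ppara, at 0.007 with upper-quartile scaling, and Nrf1, whose log2 difference ran from -0.18 to 0.004 and whose difference in mean FPKM ran from -0.534 to 0.0564 when 1 library was left out, the highest of both without young library 5. Of all features, 220 were called as deposited, 135 with median-ratio scaling, 19 with the same total FPKM, 49 without young library 4 and old library 1 together, 33 to 146 when 1 library was left out, 26 with the replicate number as a block, and 149 to 300 in the others. Calls among all features were mostly lower as deposited (85 higher, 135 lower) and mostly higher with median-ratio (105 and 30) and upper-quartile scaling (135 and 29), with 10 and 9 at the same total. The replicate block left 0 regulators called. Numbers are not known to pair libraries: deviations of same-numbered libraries correlated at -0.155 to 0.062.

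The call of 1 partner (Lpin1) gave way to 0 with no filter, each of the 3 scalings, the replicate block or both libraries left out, to 2 with a minimum of 5 FPKM, and to 0 to 1 with 1 library left out. The call of 1 ERR target (Idh3b) gave way to 0 with no filter, each of the 3 scalings, the replicate block, both libraries left out or any 1 left out, to 2 with array weights and to 3 with the stromal covariate. Among genes of mitochondrial DNA 1 was called with array weights, against 0. The cause was not tested.

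The exact permutation test was run in 12 alternatives only, which were leaving out libraries and median-ratio scaling. It was not run with upper-quartile or same-total scaling. Exact permutation p over these 12 was 0.0079 to 0.056 for Esrra, 0.016 to 0.079 for Ppard, 0.024 to 0.12 for Ppargc1a, 0.029 to 0.14 for Tfam, 0.0079 to 0.37 for Esrrb and 0.016 to 0.43 for Gabpa. Differences of the size seen here, mostly under 0.3 on the log2 scale, are close to the spread between 5 libraries, and the depth per library is unknown.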
